A study of Mus musculus with 18 samples.

Results

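The BCL2 family members considered here were 9 genes chosen by symbol: Bcl2l1, Bcl2, Mcl1, Bcl2l2, Bak1, Bid, Bcl2l11, Bad and Bik. They were taken as the rows with those symbols in the RNA-seq count tables and as the ATAC-seq peaks that carry those gene names. This gave 9 of the 24072 genes in the count table of the spleen libraries, 8 of the 10702 genes in the count table of both BFU-E populations (Bik was not among the genes the authors kept there), 27 of 35142 peaks in the bone marrow list and 49 of 61661 peaks in the stress spleen list. All cells came from B6SJL mice. Spleens were taken at day 8 after the mice had been lethally irradiated and given whole, unfractionated bone marrow, and 3 lineage-depleted populations were sorted from them: multipotent progenitors (MPP, Sca1-positive), burst-forming erythroid progenitors (BFU-E, Sca1-negative) and colony-forming erythroid progenitors (CFU-E, CD9-negative). BFU-E were also sorted from the bone marrow (BM) of mice at steady state, with no irradiation or transplantation named. Each population had 3 RNA-seq libraries, and each BFU-E population had 3 ATAC-seq libraries that were merged into 1 peak list. The labels do not say that the libraries came from separate mice, nor whether the sorted spleen cells derived from the graft or the host, so p-values measure only the spread between these libraries. Tissue, irradiation and the fluorophore used for biotinylated antibodies change together between BM and spleen BFU-E and cannot be told apart. Dead cells were excluded in every sort by a viability dye, so the values describe cells that had not lost membrane integrity.

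The BCL2 family sets whether the outer mitochondrial membrane stays intact. Protective members (BCL-XL from Bcl2l1, BCL2, MCL1 and BCL-W from Bcl2l2) hold the pore-forming effectors BAK and BAX in check. BH3-only members (BIM from Bcl2l11, BID, BAD and BIK) bind the protective members, and some also activate the effectors. Once the membrane is permeable, cytochrome c is released and caspases are activated. In the erythroid lineage, BCL-XL is known for keeping late erythroblasts alive and for its induction by erythropoietin signalling through STAT5 and by GATA1, while MCL1 is known for its need in stem cells and early progenitors.

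Total counts ran from 5937778 to 13197159 per spleen library and from 6758871 to 12926718 per library in the table of both BFU-E populations. Stem markers were highest in MPP and erythroid markers in CFU-E, as summed lists: the erythroid markers stood at 172 to 231 CPM (counts divided by a scaled library size) in MPP, 289 to 335 in BFU-E and 1698 to 1712 in CFU-E, and stem and multipotent progenitor markers at 682 to 820, 440 to 462 and 102 to 138 CPM. In BFU-E the erythroid sum stood between those of MPP and CFU-E, with Epor (22.5 CPM in BFU-E, 27.3 in MPP) and Hbb-bt (1.62 and 7.88 CPM) lower than in MPP, and it was below the sums of megakaryocyte (1513 to 1786 CPM) and granulocyte and monocyte markers (623 to 753 CPM). Most of the erythroid sum in CFU-E came from Car1 (644 CPM) and Ermap (393 CPM). At low levels, Hbb-bt (0.742 CPM) and Hba-a1 (0.169 CPM) were lowest in CFU-E, and Slc4a1 (0.712 CPM) was below BFU-E (1.65 CPM). The other erythroid markers were highest in CFU-E. The BM libraries stood apart in detection. Of the 10702 genes kept by the authors, 1.53% to 15.3% were at 0 counts in each BM library (15.3% in BM 3) and 0.420% to 0.738% in each stress BFU-E library. The common biological coefficient of variation was 0.704 in the fit with the BM libraries and 0.250 in the fit of the spleen libraries, so differences against BM were measured with much less precision.

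Of the 4 protective members, Bcl2l1 and Bcl2 fell from BFU-E to CFU-E, Bcl2l1 to a level 5.33-fold lower and Bcl2 to one 2.91-fold lower. Neither passed the test from MPP to BFU-E, where the fitted changes were near 0. Mcl1 was the most abundant member in each population and Bcl2l2 the least abundant of the 4 per length, and both passed the test only between CFU-E and MPP, in which they were lower in CFU-E. In bulk RNA, fewer cells that express a gene and less RNA of it per cell cannot be told apart.

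Bcl2l1 lies at chr2:152780664-152830717 on the minus strand (mm10). In libraries 1, 2 and 3 it stood at 71.8, 78.1 and 74.0 CPM in MPP, at 67.6, 92.1 and 74.7 CPM in BFU-E and at 19.1, 11.9 and 12.9 CPM in CFU-E. All 3 CFU-E libraries were below every other spleen library, and MPP and BFU-E overlapped. The log2 fold change from BFU-E to CFU-E was -2.41 (SE 0.21, 95% interval -2.85 to -1.97, edgeR adjusted p = 2.46e-08), the rank by p being 116 among 10166 genes. From MPP to BFU-E it was 0.07 (SE 0.20, interval -0.35 to 0.48, edgeR adjusted p = 0.924), bounds that lie well inside the change of the second step. The change at the second step differed from that at the first (difference of log2 fold changes -2.48, SE 0.33, edgeR adjusted p = 2.71e-05).

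Bcl2 lies at chr1:106538176-106714290 on the minus strand. Its CPM was 114, 88.1 and 151 in the MPP libraries, 96.7, 127 and 137 in the BFU-E libraries and 42.4, 39.7 and 42.0 in the CFU-E libraries. The CFU-E values lay within a narrow band below all others, whereas MPP and BFU-E covered the same wider range. The log2 fold change was -1.54 from BFU-E to CFU-E (SE 0.18, interval -1.92 to -1.16, edgeR adjusted p = 2.29e-06) and 0.03 from MPP to BFU-E (SE 0.18, interval -0.34 to 0.41, edgeR adjusted p = 0.966). Here too the steps differed, by -1.57 (SE 0.30, edgeR adjusted p = 0.00154). The counted Bcl2 transcript shares 558 exon bases with D630008O14Rik on the opposite strand, and the strand used in counting is not stated. The deposited RPKM tables keep a shorter Bcl2 transcript, of 2123 bases against 7205. The reads implied by its RPKM came to 18.3% to 40.4% of those counted on the longer one in the spleen libraries. On the shorter transcript Bcl2 stood at 9.12 ± 2.81 RPKM in MPP, 7.75 ± 1.57 in BFU-E and 2.28 ± 0.215 in CFU-E (mean ± SD, n = 3).

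Mcl1 (chr3:95658721-95663178, plus strand) makes a protein that is turned over within hours, and its mRNA level is one of several points at which the protein is set. It stood at 357, 349 and 360 CPM in MPP, at 302, 317 and 307 CPM in BFU-E and at 276, 291 and 260 CPM in CFU-E. The 3 populations did not overlap, in the order MPP, BFU-E, CFU-E, and the steps between neighbours were small: a log2 fold change of -0.20 from MPP to BFU-E (SE 0.09, edgeR adjusted p = 0.286) and of -0.16 from BFU-E to CFU-E (SE 0.09, interval -0.36 to 0.03, edgeR adjusted p = 0.247). Neither step passed the threshold, while the fall across both did (log2 fold change -0.37, SE 0.09, edgeR adjusted p = 0.00536). The steps did not differ detectably from each other (difference 0.04, interval -0.30 to 0.38, edgeR adjusted p = 0.935).

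Bcl2l2 (chr14:54883425-54888234, plus strand) encodes BCL-W, a protective protein studied mostly in testis and neurons. It stood at 22.6, 21.3 and 27.6 CPM in MPP, at 15.3, 19.4 and 18.8 CPM in BFU-E and at 11.2, 8.47 and 13.5 CPM in CFU-E. The populations did not overlap. Bcl2l2 fell from MPP to CFU-E by 1.11 on the log2 scale (SE 0.33, edgeR adjusted p = 0.0136), but the call was lost without MPP 3 (-0.98, edgeR adjusted p = 0.0584) or without CFU-E 2 (-0.95, edgeR adjusted p = 0.0559). The differences at the single steps were -0.42 (SE 0.32, edgeR adjusted p = 0.589) and -0.69 (SE 0.32, edgeR adjusted p = 0.145). Its transcript shares 594 exon bases with Gm20521 on the same strand, so the reads of both cannot be assigned with certainty.

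**Figure D1:**
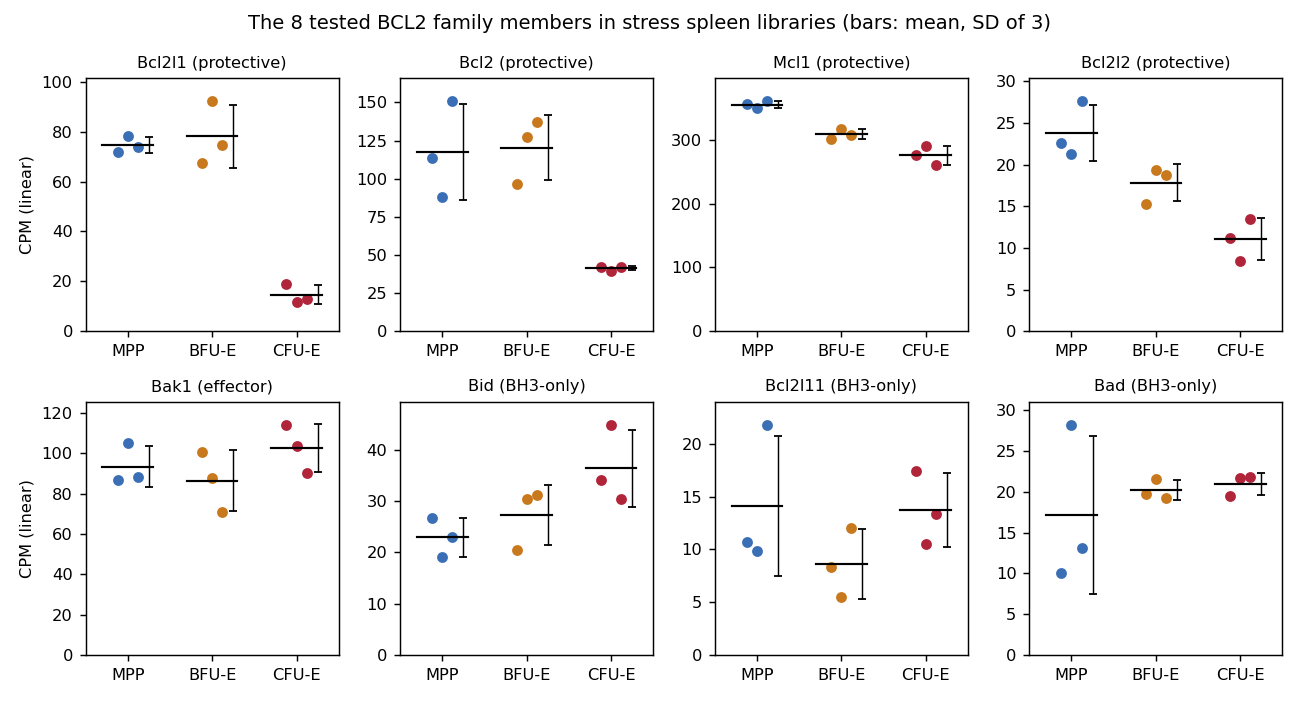
CPM (linear axis from 0, vertical) of the 8 tested members in the 9 stress spleen libraries, by population (horizontal); points are libraries, horizontal bars means and error bars the SD of 3 libraries. The Bcl2l1 points drop from 67.6 to 92.1 CPM in BFU-E to 11.9 to 19.1 CPM in CFU-E and the Bcl2 points from 96.7 to 137 to 39.7 to 42.4 CPM, while Bak1 stays between 70.8 and 114 CPM in all 9 libraries.

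The death-promoting members showed no called change between any of the spleen populations. Bak1, the effector (chr17:27019812-27028626, minus strand), stood at 86.7, 105 and 88.3 CPM in MPP, at 101, 87.6 and 70.8 CPM in BFU-E and at 114, 104 and 90.2 CPM in CFU-E. All 3 populations overlapped, and the log2 fold change from BFU-E to CFU-E was 0.25 (SE 0.16, interval -0.08 to 0.58, edgeR adjusted p = 0.307). Its transcript shares 614 exon bases with Ggnbp1 on the opposite strand.

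Bid (chr6:120893119-120916820, minus strand) links death receptors to mitochondria once it is cleaved by caspase-8. It stood at 26.8, 19.2 and 23.1 CPM in MPP, at 20.6, 30.4 and 31.2 CPM in BFU-E and at 34.2, 44.9 and 30.4 CPM in CFU-E. CFU-E lay above all MPP libraries and overlapped BFU-E. The log2 difference of CFU-E from MPP was 0.66 (SE 0.26, edgeR adjusted p = 0.0626) and did not pass, nor did that from BFU-E (0.42, SE 0.26, edgeR adjusted p = 0.290).

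Bcl2l11 (chr2:128126038-128162547, plus strand) encodes BIM, which binds every protective member. It was low and variable, at 9.85 to 21.8 CPM in MPP, 5.45 to 12.0 CPM in BFU-E and 10.5 to 17.4 CPM in CFU-E, and the populations overlapped. Its log2 difference was -0.71 at the first step (SE 0.45, edgeR adjusted p = 0.494) and 0.68 at the second (SE 0.45, edgeR adjusted p = 0.332), and the contrast of the steps, 1.39 (SE 0.80), did not pass (edgeR adjusted p = 0.377). Bad (chr19:6941861-6951905, plus strand), whose protein is held inactive by phosphorylation and 14-3-3 binding, stood at 10.01 to 28.2 CPM in MPP, 19.2 to 21.6 CPM in BFU-E and 19.5 to 21.9 CPM in CFU-E. The log2 difference of Bad from BFU-E to CFU-E was 0.06 (SE 0.35, edgeR adjusted p = 0.939). The counted Bad transcript shares 524 exon bases with Gpr137 on the opposite strand.

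Bik (chr15:83526862-83544635, plus strand), a BH3-only gene whose product sits at the endoplasmic reticulum, was below the count filter. It had 0 counts in 8 of the 9 spleen libraries and 8 counts (0.813 CPM) in CFU-E 3. A count of 0 allows up to 3 counts over a group, or 0.108 CPM in MPP and 0.0838 CPM in BFU-E, counting error only. In the RPKM table of the 6 BFU-E libraries Bik was listed at 4.66 RPKM in BM 1 and at 0 in the others, whereas in the RPKM table of all 12 libraries it was listed at 0 in BM 1 and BM 2 and at 4.92 RPKM in BM 3.

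Read against all genes, the number of members called was modest in size. From MPP to BFU-E, 0 of the 8 tested members passed, beside 4.13% of the 10166 genes tested, and the groups of 2 members (Mcl1 and Bcl2l2) did not overlap, beside 21.4% of genes. By DESeq2 also 0 of 8 passed, and 1 member, Mcl1, had an unadjusted edgeR p under 0.05, beside 15.8% of genes. From BFU-E to CFU-E, 2 of 8 fell and 0 rose, beside 21.1% of genes called in either direction, 11.9% lower and 9.17% higher. In that comparison the groups of 4 members did not overlap (the 4 protective ones), beside 37.5% of genes. From MPP to CFU-E, 4 of 8 fell (the 4 protective ones) and 0 rose, beside 28.8% of genes called, 16.0% lower and 12.7% higher, and the groups of 5 members did not overlap, beside 40.4% of genes. The contrast of the second step with the first was called for 2 of 8 members, both lower, beside 7.77% of genes called, 4.99% lower and 2.78% higher. The median log2 fold change of the 8 members was -0.04, -0.05 and -0.20 in the 3 comparisons of populations, against -0.00 over all genes tested in each.

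**Figure D2:**
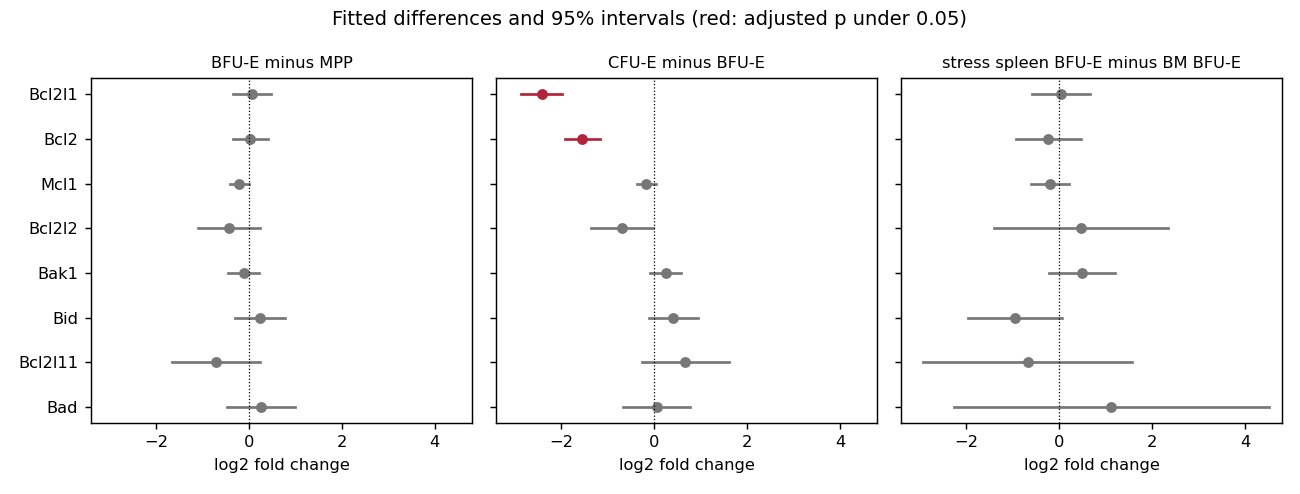
Fitted log2 fold change (horizontal) and its 95% interval for each tested member (vertical) from MPP to BFU-E, from BFU-E to CFU-E and from BM BFU-E to stress spleen BFU-E; red marks an adjusted p under 0.05. The red entries are Bcl2l1 (-2.41) and Bcl2 (-1.54) in the middle panel, and the intervals against BM are the widest, with Bad at 1.12 and an SE of 1.46.

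Markers of other cells moved along with the fall of Bcl2l1 and Bcl2. The 7 megakaryocyte markers summed to 1513 to 1786 CPM in BFU-E and to 85.6 to 106 CPM in CFU-E, in which Gp6 was at 0. The 9 granulocyte and monocyte markers summed to 623 to 753 CPM in BFU-E and 21.2 to 88.3 CPM in CFU-E, in which Fcgr3 was at 0. In MPP, the megakaryocyte markers summed to 886 to 1037 CPM and the granulocyte and monocyte markers to 49.1 to 515 CPM and Bcl2l1 and Bcl2 overlapped BFU-E. Mast cell and basophil markers stood at 502 to 552 CPM in BFU-E and 288 to 402 CPM in CFU-E, and Gata2, which progenitors also express, made up most of both sums (means of 512 and 328 CPM). Of the mast cell and basophil genes proper, Cpa3 was at 4.54 and 5.46 CPM, Ms4a2 at 4.74 and 6.14 CPM, and Mcpt8 and Prss34, at 1.07 and 0.210 CPM in BFU-E, were at 0 in CFU-E. Macrophage markers summed to 15.5 to 30.8 CPM over the 9 libraries with C1qb at 0 in all populations, and B cell markers to 1.16 to 9.85 CPM. Nearly all of the macrophage sum was Cd163 (means of 19.4, 21.9 and 24.9 CPM in MPP, BFU-E and CFU-E). T and NK cell markers summed to 52.7 to 68.1 CPM in BFU-E and 23.3 to 36.4 CPM in CFU-E, nearly all of it Nkg7 (means of 57.7 and 30.5 CPM), with Cd3e and Cd8a at 0 in both. Stroma and endothelium markers summed to 72.7 to 116 and 31.7 to 37.9 CPM, nearly all of it Pecam1 and Kdr, with Lepr at 0 in both. The part of these cells in the fall of Bcl2l1 and Bcl2 was not tested.

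Levels of different genes were compared per length, as CPM per kilobase of the counted transcript. In MPP the order of means was Mcl1 (102), Bak1 (46.9), Bcl2l1 (28.5), Bcl2 (16.3), Bid (12.2), Bad (11.8), Bcl2l2 (6.89) and Bcl2l11 (2.81). BFU-E had the same order, from 88.7 for Mcl1, 43.4 for Bak1, 29.8 for Bcl2l1 and 16.7 for Bcl2 to 1.71 for Bcl2l11. In CFU-E, Bcl2 (5.74, on its longer transcript) and Bcl2l1 (5.57) stood behind Bid (19.4) and Bad (14.5), and only Bcl2l2 (3.20) and Bcl2l11 (2.73) stood lower. Some neighbours in these orders were closer than 1 SD of either gene: Bcl2 and Bid, and Bid and Bad, in MPP and BFU-E, Bad and Bcl2l2 in MPP, and Bcl2 and Bcl2l1, and Bcl2l2 and Bcl2l11, in CFU-E. The place of Bcl2 depends on the transcript in every population. By RPKM, on shorter transcripts of Bcl2 and Bad, Bcl2 was already below Bad in MPP (9.12 and 9.62) and BFU-E (7.75 and 10.96). Bid then stood at 6.80 RPKM in MPP and 7.89 RPKM in BFU-E.

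Within single libraries, the pool of protective transcripts was smaller and more one-sided in CFU-E. The summed level of Mcl1, Bcl2l1, Bcl2 and Bcl2l2 was 148 to 161 CPM per kilobase in MPP, 130 to 150 in BFU-E and 89.5 to 96.1 in CFU-E, so that CFU-E lay below the others. Mcl1 made up 66.4% ± 1.74 of it in MPP, 63.3% ± 2.88 in BFU-E and 84.5% ± 2.21 in CFU-E (mean ± SD, n = 3). Bcl2l1 made up 18.5% ± 1.32, 21.1% ± 2.04 and 5.94% ± 1.501.

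The log2 ratio of Bcl2l1 to Mcl1, both per kilobase, was -1.84 in MPP, -1.59 in BFU-E and -3.86 in CFU-E. That of Bcl2l1 to Bcl2 was 0.84 ± 0.43, 0.84 ± 0.23 and -0.07 ± 0.33. In CFU-E it was above 0 in library 1 (0.31) and below 0 in libraries 2 and 3 (-0.29 and -0.24). This ratio depends on the transcript counted for Bcl2: on the shorter one of the RPKM table, Bcl2l1 stood at 3.20 and Bcl2 at 2.28 RPKM in CFU-E. Set against Bak1, the effector among the members, the protective sum had a log2 ratio of 1.49 to 1.86 in MPP. That ratio was 1.36 to 1.99 in BFU-E and 0.74 to 0.98 in CFU-E. Set against the BH3-only sum of Bid, Bad, Bcl2l11 and Bik, it was 2.53 ± 0.26, 2.22 ± 0.09 and 1.35 ± 0.11. These ratios describe mRNA, were not tested, and follow in large part from the values of Bcl2l1, Bcl2 and Mcl1 above. They leave out the effector gene Bax, at 38.4, 34.4 and 46.4 CPM per kilobase in MPP, BFU-E and CFU-E. Bak1 was at 46.9, 43.4 and 51.5 in the same order. The BH3-only sum leaves out Bbc3 (5.24, 4.07 and 3.95) and Pmaip1 (6.75, 4.43 and 4.92).

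**Figure D3:**
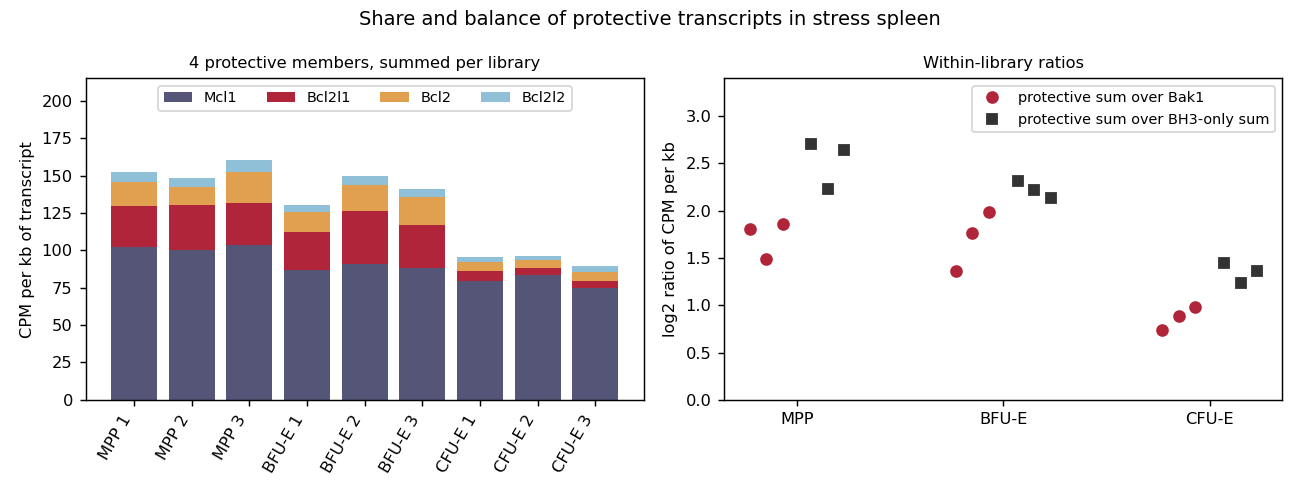
Left, CPM per kilobase (vertical, from 0) of the 4 protective members stacked for each of the 9 stress spleen libraries (horizontal). Right, within-library log2 ratios of that sum to Bak1 and to the BH3-only sum, 1 point per library; the ratio to Bak1 is 1.36 to 1.99 in BFU-E and 0.74 to 0.98 in CFU-E.

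Among tested genes with a mean of at least 20 CPM, and leaving out genes known only by a clone or a predicted model, the patterns closest to Bcl2l1 over the 9 spleen libraries (Pearson r of log2 CPM, given as a description) were those of Ptp4a3 (r = 0.996), Lmo2 (r = 0.992) and Ptgs1 (r = 0.990). Their mean CPM in MPP, BFU-E and CFU-E was 104, 116 and 41.1 for the phosphatase gene Ptp4a3, 622, 624 and 448 for the transcription cofactor gene Lmo2, and 88.0, 89.3 and 4.42 for Ptgs1, which encodes cyclooxygenase-1. For Bcl2 they were Soga1 (r = 0.978), Wipf1 (r = 0.975) and Mycn (r = 0.970). Mycn, a MYC family transcription factor gene, went from 208 and 204 CPM to 30.0 CPM in CFU-E. All points of such a correlation share the library sizes and the split between CFU-E and the other populations.

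No member passed the test between stress spleen and BM BFU-E in the count table. The count was 0 of 8 members, beside 0.112% of 10702 genes (1 called higher and 11 lower). With an unadjusted p under 0.05 there were 0 of 8 members, beside 9.84% of genes, and DESeq2 called 685 genes and 0 of 8 members. The groups of 1 member, Bid, did not overlap, beside 21.9% of genes. The median log2 fold change of the 8 members was -0.09, against 0.01 over all genes tested. The stress BFU-E libraries are those of the spleen comparisons, scaled here within another table.

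Bcl2l1 stood at 61.2, 82.5 and 89.2 CPM in BM 1, 2 and 3 and at 68.4, 93.7 and 76.0 CPM in stress 1, 2 and 3, and the groups overlapped throughout (log2 fold change 0.03, interval -0.59 to 0.66, edgeR adjusted p = 0.985). Mcl1 stood at 302, 340 and 442 CPM in BM and at 306, 323 and 313 CPM in stress spleen, a log2 difference of -0.20 (edgeR adjusted p = 0.777). Bcl2 stood at 209, 102 and 122 CPM in BM and at 98.0, 129 and 140 CPM in stress spleen. BM 1 was the high library for Bcl2, and the log2 difference of -0.24 (edgeR adjusted p = 0.867) became 0.13 without it. Bcl2l2 spread from 4.92 to 24.96 CPM in BM around the 15.5 to 19.7 CPM of stress spleen (log2 difference 0.47, edgeR adjusted p = 0.909).

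Bid was the member whose groups did not overlap. It stood at 35.0, 47.7 and 78.5 CPM in BM and at 20.8, 30.9 and 31.7 CPM in stress spleen, with all 3 stress libraries below all 3 BM libraries. The log2 difference was -0.95 (SE 0.44, interval -1.96 to 0.07, edgeR adjusted p = 0.530, DESeq2 adjusted p = 0.172). Bak1 stood at 43.4, 76.9 and 67.1 CPM in BM and at 102, 89.1 and 72.1 CPM in stress spleen, where BM 1 was the low library (log2 difference 0.49, SE 0.31, interval -0.22 to 1.201, edgeR adjusted p = 0.677). Bcl2l11 spread from 4.63 to 27.1 CPM in BM and from 5.54 to 12.3 CPM in stress spleen (log2 difference -0.68, edgeR adjusted p = 0.888). Bad had 5.86, 22.4 and 0 CPM in BM and 20.002, 22.0 and 19.5 CPM in stress spleen (log2 difference 1.12, SE 1.46, edgeR adjusted p = 0.874), so its difference rests on how it was detected in BM 1 and BM 3.

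Per kilobase, Mcl1 led in BM (104) as in stress BFU-E (90.1), and Mcl1 held 65.7% ± 5.85 and 63.3% ± 2.88 of the protective sum. The log2 ratio of the protective sum to Bak1 was 1.92 to 2.75 in the BM libraries and 1.36 to 1.99 in the stress libraries, groups that overlapped. Granulocyte and monocyte markers summed to 720 to 1540 CPM in BM and 634 to 766 CPM in stress BFU-E, stem and multipotent markers to 596 to 805 and 445 to 469 CPM, and 3 macrophage markers to 45.4 to 108 and 17.96 to 30.8 CPM. Erythroid markers, 6 of which were in this table, summed to 160 to 272 CPM in BM and 288 to 336 CPM in stress BFU-E. The higher sum in stress came from Tfrc (41.2 and 118 CPM), Gata1 (86.5 and 115 CPM) and Epor (4.99 and 22.8 CPM), while Klf1 was equal (both 29.0 CPM) and Car1 (43.7 and 28.9 CPM) and Ermap (9.20 and 4.12 CPM) were higher in BM. Megakaryocyte markers summed to 1675 to 2644 CPM in BM and 1539 to 1817 CPM in stress BFU-E, mast cell and basophil markers to 432 to 829 and 507 to 560 CPM, and stroma and endothelium markers to 92.7 to 145 and 73.1 to 118 CPM. Single genes of these lists differed more between the means of BM and stress, as Prss34 (26.2 and 0.214 CPM), Mcpt8 (15.6 and 1.09 CPM), Col1a1 (20.6 and 0.0939 CPM) and Cxcl12 (7.26 CPM in BM and 0 counts in stress). Of the megakaryocyte list, Pf4 (541 and 276 CPM), Itga2b (884 and 768 CPM) and Gp1ba (71.1 and 47.3 CPM) were higher in BM. Gp9 (9.70 and 21.7 CPM) and Ppbp (0 and 8.40 CPM) were lower in BM, and Vwf was near equal (569 and 571 CPM). The part of all these markers in the values of the members was not tested.

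**Figure D4:**
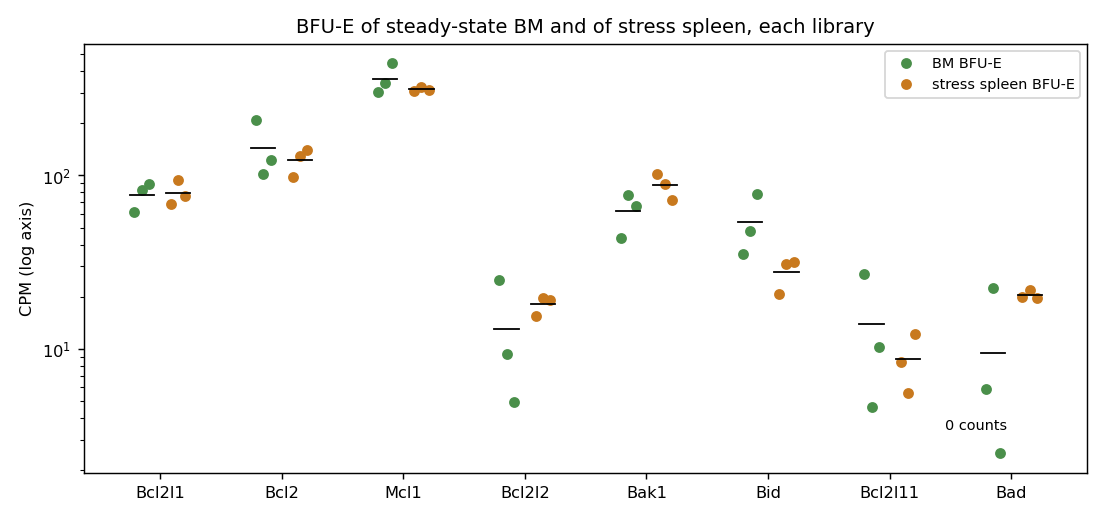
CPM (log axis, vertical) of the 8 members (horizontal) in the 3 BM and 3 stress spleen BFU-E libraries; points are libraries and bars means, and the BM library with 0 counts of Bad is drawn at the foot of the axis. BM libraries spread more than stress libraries for most members, as for Bcl2l2 (4.92 to 24.96 against 15.5 to 19.7 CPM).

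The deposited tables do not give 1 answer for BM. The RPKM table of all 12 libraries holds BM columns with the same names as the count columns, and their rank correlation with those counts per length was 0.518 to 0.660 over 8580 genes, against 1.0 for the columns of the other RPKM table that could be matched to a library by name. The BM columns of the 12-library table also summed to 393478 to 438911 RPKM, against 189890 to 202101 for its stress BFU-E columns. In them Bak1 was at 2.06, 0.444 and 0.789 RPKM, against 19.4 to 28.7 RPKM in stress BFU-E, and Bid was at 29.7, 77.9 and 103 RPKM, against 6.19 to 9.04 RPKM. Bcl2l1 was at 24.1, 41.9 and 47.7 RPKM, against 15.8 to 19.6 RPKM, and Bcl2 at 39.4, 28.6 and 57.5 RPKM, against 6.24 to 9.37 RPKM.

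With these BM columns, limma on log2(RPKM + 1), a test chosen after the data had been seen, called 7 of 7 tested members: Bak1 (3.61 on the log2(RPKM + 1) scale) and Bcl2l2 (1.40) higher in stress BFU-E, and Bid (-2.84), Bcl2 (-2.25), Bad (-1.86), Mcl1 (-1.42) and Bcl2l1 (-1.03) lower. The limma adjusted p of these 7 was between 8.73e-05 and 0.0103. But 63.6% of the 10823 genes tested were called, 12.9% higher and 50.8% lower, so most genes were called, members or not. For Bad and Bcl2l1 the direction was opposite to that in the count table. Which set of columns holds the BM libraries as sequenced cannot be told from the tables, and the comparisons with BM in CPM above hold for the count table only.

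Beyond the 9 members, the neighbouring steps of the pathway were followed in lists of genes chosen by function. From BFU-E to CFU-E, among 16 further BCL2 family genes, 6 had enough counts to be tested (list median 0.29 on the log2 scale, against -0.00 over all genes). Of these, 1 rose and 0 fell, beside 9.17% of all genes called higher and 11.9% lower. The riser was Bcl2l13, whose product is a mitochondrial outer membrane protein linked to mitophagy, which went from 102 ± 20.9 to 179 ± 23.1 CPM (a log2 difference of 0.82, SE 0.17, edgeR adjusted p = 0.00102). Bax, the effector next to Bak1, had 29.6 CPM in BFU-E and 39.9 CPM in CFU-E and did not pass (0.43, edgeR adjusted p = 0.189). Bnip3l, the mitophagy receptor of maturing red cells, stood at 68.2 and 53.4 CPM (-0.35, edgeR adjusted p = 0.280).

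Downstream of the mitochondrion, 4 of 17 genes of the apoptosome, the caspases and their inhibitors rose and 0 fell from BFU-E to CFU-E (median 0.16), beside 9.17% of all genes called higher. Diablo, which relieves caspase inhibition once it leaves mitochondria, went from 30.0 to 64.6 CPM (1.11, SE 0.22, edgeR adjusted p = 0.00102), and the mitochondrial protease gene Htra2 from 51.5 to 83.8 CPM (0.70, edgeR adjusted p = 0.0250). The caspase inhibitor gene Xiap missed the threshold (-0.43, edgeR adjusted p = 0.0508), and Birc6, the most abundant gene of the list, had a difference of 0.06 (edgeR adjusted p = 0.728).

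Of 16 tested regulators of BCL2 family proteins, 4 rose and 1 fell (median 0.16), beside 9.17% and 11.9% of all genes. Trp53, whose protein induces several BH3-only genes, went from 141 to 205 CPM (0.54, edgeR adjusted p = 0.00418), and Vdac2, which holds BAK at mitochondria, from 94.6 to 143 CPM (0.59, edgeR adjusted p = 0.00429). The dynein light chain genes moved in opposite directions, Dynll1, whose product tethers BIM, by 0.67 (edgeR adjusted p = 0.0159) and Dynll2 by -0.66 (edgeR adjusted p = 0.00464). Huwe1, a ubiquitin ligase that targets MCL1, was at 1181 and 1212 CPM (0.04, edgeR adjusted p = 0.762).

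In the death receptor pathway, which reaches the family through Bid, 3 of 10 tested genes fell and 0 rose (median -0.19), beside 11.9% of all genes called lower. They were Cflar, which encodes the inhibitor FLIP (67.8 to 37.8 CPM, -0.85, edgeR adjusted p = 0.0113), the receptor gene Tnfrsf21 (-0.63, edgeR adjusted p = 0.0110) and Casp8 (-0.44, edgeR adjusted p = 0.0487). Of 13 genes of erythropoietin and KIT signalling, 4 rose and 3 fell (median 0.11), beside 21.1% of all genes called in either direction. The receptor gene Epor went from 22.5 to 54.8 CPM (1.29, SE 0.27, edgeR adjusted p = 0.00119) and Kit from 303 to 492 CPM (0.70, edgeR adjusted p = 7.27e-05), and Irs2 rose by 0.88 (edgeR adjusted p = 0.0191). The feedback inhibitor genes Socs3 (-1.63, edgeR adjusted p = 0.0469) and Cish (-1.08, edgeR adjusted p = 0.0340), which STAT5 is known to induce, and the kinase gene Lyn (-0.59, edgeR adjusted p = 0.00907) fell.

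At the first step, from MPP to BFU-E, no gene of the first 4 lists passed, beside 4.13% of all genes called. Erythropoietin and KIT signalling had 1 gene that rose (Gata1, 0.67, edgeR adjusted p = 0.0202) and 2 that fell (Kit, -0.51, edgeR adjusted p = 0.00896, and Pik3r1, -0.41, edgeR adjusted p = 0.0362). Between stress spleen and BM BFU-E, 0 genes of the 5 lists passed in the count table, beside 0.112% of all genes.

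Accessible chromatin was deposited for the BFU-E populations only, as 1 merged list of peaks for each, so peaks carry no replicate test and none can be set beside the fall in CFU-E. Of the 27 BM peaks annotated to members, 26 (96.3%) overlapped a stress peak by at least 1 base, beside 95.5% of all BM peaks. Of the 49 stress peaks, 27 (55.1%) overlapped a BM peak, beside 55.01% of all stress peaks. The stress list held 1.81 peaks per BM peak at members and 1.75 over all genes, so members followed the lists as a whole. There were 6 members with more peaks in the stress list, 1 with fewer and 2 with as many, beside 65.6%, 3.56% and 30.9% of the 18139 genes with any peak. The authors' score of a peak was at its ceiling of 1000 in 8 of 27 BM and 29 of 49 stress peaks of members, beside 30.4% of all BM and 49.2% of all stress peaks.

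The promoter region was accessible in both populations at nearly every start of a member. Of 12 RefSeq promoter windows of members (250 bases before to 50 after a start), 11 overlapped a peak in each list, beside 39.0% of 32851 windows in BM and 44.2% in stress spleen. The exception was 1 of the 3 Bcl2l1 starts, with the window chr2:152828440-152828739. The 12 windows belong to 8 genes, all of which passed the count filter in spleen. The 32851 windows were taken whatever the level of their genes, so the shares do not compare like with like. Bik, which had 0 counts in the BFU-E libraries of the spleen table, had a promoter peak in both lists (chr15:83526240-83527369 in BM and chr15:83526419-83527322 in stress spleen, scores 802 and 990). The Bad promoter lies in a stress peak that the authors' annotation gives to Gpr137, which is why Bad has 2 peaks in the BM list and 1 in the stress list.

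Bcl2l11, Bcl2 and Bid carried the most distal peaks of the members in the stress list (14, 8 and 8). Bcl2l11 had 8 BM and 16 stress peaks, and only 1.06% of genes had as many in the stress list. Of the 16, 10 lay in introns of Acoxl, upstream of Bcl2l11, up to 118 kb from the start, and 9 overlapped no BM peak. Bid had 5 and 9 peaks, beside a 90th percentile of 4 and 7 over all genes with any peak. Of the Bid peaks, 2 and 4 lay in introns of Mical3. Mcl1 had 4 and 5 peaks, with 3 and 4 of them between 4.93 and 13.2 kb upstream. Annotation goes to the nearest start and does not show which gene a region acts on.

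Bcl2l1 had 2 BM and 5 stress peaks. Besides the promoter, both lists had a peak in intron 2 (chr2:152817255-152818384 in BM, score 968, and chr2:152817454-152818359 in stress spleen, score 1000), 12.9 and 12.8 kb from the start. The stress list had 2 more in the same intron, at 16.2 kb (score 487) and 29.8 kb (score 846). Bcl2 had 3 BM and 9 stress peaks. Both lists had a promoter peak and 2 peaks in intron 1, about 60.6 and 47.7 kb from the start by the stress list. The 6 stress-only peaks were 4 in intron 1, 1 in exon 1 and 1 in intron 7 of the upstream gene Kdsr.

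**Figure D5:**
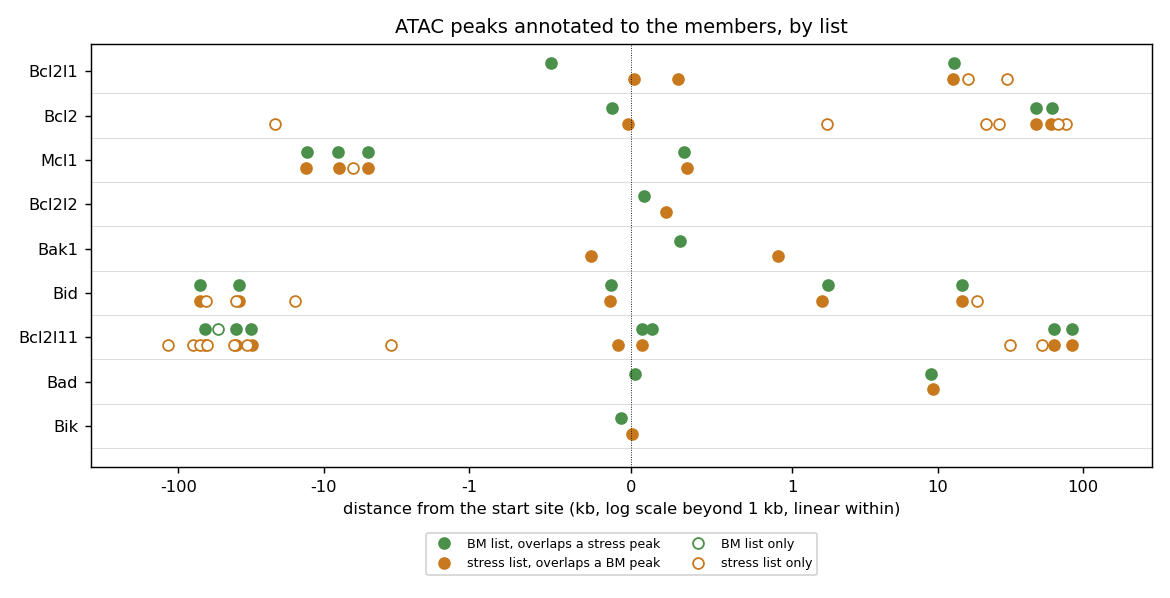
Distance of each merged ATAC peak annotated to a member from the gene's start (horizontal, kb, linear within 1 kb and log scale beyond), by member (vertical) and list; filled points overlap a peak of the other list and open points do not. Open stress points, 22 in all, sit mostly at Bcl2l11 (9), Bcl2 (6) and Bid (4), and 1 BM point is open, at Bcl2l11.

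The sequences below are 201-base windows at the centres of stress peaks of the 2 genes that fell in CFU-E (mm10, plus strand, read from GRCm38), shown because GATA1, which works with E-box-binding factors in erythroid cells, is a textbook regulator of Bcl2l1. Capitals mark GATA letters (AGATAA or TGATAA) and E-boxes (CAGNTG) on either strand. The first Bcl2l1 window is the intron 2 peak of both lists, chr2:152817806-152818006, with 3 E-boxes and 0 GATA matches; the window centred on the BM peak, chr2:152817719-152817919, held 1 GATA match. The other Bcl2l1 window is from a stress-only peak of score 487, chr2:152814374-152814574, and has 1 GATA match. The window of the stress-only Bcl2l1 peak of score 846, chr2:152800802-152801002, is not printed and held 0 GATA matches and 0 E-boxes. Among the stress windows of both genes that are not printed, only chr1:106692753-106692953, at a stress-only Bcl2 peak, held a GATA match. The Bcl2 windows are from the intron 1 peaks of both lists, chr1:106653626-106653826 with 2 GATA matches and chr1:106666511-106666711 with 1; the windows centred on the BM peaks there, chr1:106653488-106653688 and chr1:106666557-106666757, held 1 and 0.
Bcl2l1 intron 2, both lists: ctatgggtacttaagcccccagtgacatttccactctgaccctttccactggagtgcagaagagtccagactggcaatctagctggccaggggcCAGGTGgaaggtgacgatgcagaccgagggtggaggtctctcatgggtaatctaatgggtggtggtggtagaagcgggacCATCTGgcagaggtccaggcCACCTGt
Bcl2l1 intron 2, stress list: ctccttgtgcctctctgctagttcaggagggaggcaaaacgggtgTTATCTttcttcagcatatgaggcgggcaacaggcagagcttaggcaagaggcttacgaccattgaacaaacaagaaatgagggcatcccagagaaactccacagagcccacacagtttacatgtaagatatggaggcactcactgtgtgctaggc
Bcl2 intron 1, 60.6 kb from the start: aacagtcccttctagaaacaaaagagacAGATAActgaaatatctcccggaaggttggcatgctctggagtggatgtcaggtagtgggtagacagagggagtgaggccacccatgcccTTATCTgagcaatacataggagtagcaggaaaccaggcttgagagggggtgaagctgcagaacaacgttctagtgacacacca
Bcl2 intron 1, 47.7 kb from the start: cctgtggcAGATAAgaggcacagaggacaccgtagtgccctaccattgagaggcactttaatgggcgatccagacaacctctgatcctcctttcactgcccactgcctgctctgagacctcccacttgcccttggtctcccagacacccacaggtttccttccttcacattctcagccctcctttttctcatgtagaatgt

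Members' windows held GATA letters about as often as all windows did, while some other letters differed more, on few windows. GATA letters were in 4 of 27 BM windows (14.8%, beside 15.2% of all 35142) and 8 of 49 stress windows (16.3%, beside 18.3% of all 61661). E-boxes were in 29.6% and 36.7% of members' windows, beside 39.8% and 42.2% of all. The STAT letters TTCNNNGAA were in 0 and 3 members' windows (0% and 6.12%), beside 5.19% and 5.56% of all. The Kruppel-like letters CCNCNCCC were in 11 and 17 (40.7% and 34.7%), beside 34.4% and 30.7%. The FOXO letters TGTTTAC were in 2 and 0 members' windows (7.41% and 0%), beside 2.02% and 2.21%. A match is a description of letters, not a bound site.

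Promoters are shown for the protective members that lead the results, as the 250 bases before the RefSeq start (GRCm38.p6, written along the gene's own strand), with the GC box GGGCGG on either strand in capitals. They are chr2:152831729-152831978 (minus strand) for the most upstream Bcl2l1 start, chr1:106714291-106714540 (minus strand) for Bcl2 and chr3:95658471-95658720 (plus strand) for Mcl1. The GC box occurred 7 times in the Bcl2 window, 1 time in that of Mcl1 and 0 times in that of Bcl2l1. The Bcl2l1 transcript that was counted starts further downstream, at chr2:152830717, and the promoter of that start is not printed. A stress peak window that spans it, chr2:152830594-152830794, held 1 GC box.
Bcl2l1 promoter: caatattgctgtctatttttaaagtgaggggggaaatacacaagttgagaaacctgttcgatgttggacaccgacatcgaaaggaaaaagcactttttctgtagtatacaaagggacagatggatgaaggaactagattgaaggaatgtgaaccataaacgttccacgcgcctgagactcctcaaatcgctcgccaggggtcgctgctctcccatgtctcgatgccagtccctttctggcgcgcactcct
Bcl2 promoter: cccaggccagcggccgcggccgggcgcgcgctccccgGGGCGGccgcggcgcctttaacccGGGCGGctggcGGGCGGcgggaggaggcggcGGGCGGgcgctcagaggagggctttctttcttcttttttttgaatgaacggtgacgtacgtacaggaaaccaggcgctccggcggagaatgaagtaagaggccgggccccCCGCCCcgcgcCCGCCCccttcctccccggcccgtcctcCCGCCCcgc
Mcl1 promoter: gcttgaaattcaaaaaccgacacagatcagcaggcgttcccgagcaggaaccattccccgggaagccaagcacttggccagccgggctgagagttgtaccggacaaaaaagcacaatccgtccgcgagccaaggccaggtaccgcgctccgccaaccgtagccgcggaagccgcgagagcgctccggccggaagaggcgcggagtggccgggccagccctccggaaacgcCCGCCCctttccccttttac

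Over the 12 promoter windows of members, 7 (58.3%) held a GC box, beside 32.7% of all 32851, and 7 held the Kruppel-like letters, which can overlap a GC box, beside 45.9%. GATA letters were in 1 window, beside 16.6%, E-boxes in 2, beside 44.8%, STAT letters in 0, beside 7.02%, and FOXO letters in 1, beside 3.17%. The 12 windows belong to 8 genes, and those of 1 gene lie close together, so they are not independent.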

How the data were processed

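The deposited count tables hold raw counts per gene, which the authors made with HOMER over exons with 1 transcript kept per gene, per the file headers; the table of both BFU-E populations was filtered by the authors on a mean of 50 counts, per the labels. The deposited RPKM tables hold the authors' reads scaled to transcript length and library size. The deposited peak lists give the authors' score per peak, from 415 to 1000. The submitters' processing notes name DESeq2, HOMER 4.8, Bowtie2 2.3.4.2 and STAR 2.6.0b-1 on mm10 (GRCm38); the strand setting, peak caller and their parameters are not given in the sources used here.

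The quasi-likelihood F test of edgeR 4.0.16 (R 4.3.3, TMM scaling) was run on the counts, with Benjamini-Hochberg adjustment over all genes of a fit and a threshold of 0.05. A single fit held the 9 spleen libraries and the 10166 genes whose mean count was at least 50, and another the 6 BFU-E libraries and the 10702 genes of their table. CPM uses TMM factors. The SE is the log2 fold change divided by the square root of F, an approximation, and 95% intervals use the t quantile at edgeR's degrees of freedom. Levels between genes are CPM per kilobase of the counted transcript in place of the planned RPKM, because the RPKM tables keep other transcripts and 2 sets of BM columns. In the RPKM table of the 6 BFU-E libraries, the header of 1 BM column does not spell out a whole library name, so that column counted towards the group only. Repeated peak entries for 1 interval were merged, and overlaps were found with bedtools 2.31.1. Motifs were searched by exact letters on both strands. Scripts were tested on simulated data. Replicate numbers were not used as pairs in the main fits.

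The members, gene lists, markers and comparisons were chosen with earlier results of these data known. Named genes were all 9 members, up to 3 called genes per direction and list by size of change, up to 2 of the most abundant genes of a list that did not pass, and the 3 closest patterns for Bcl2l1 and Bcl2. Alternatives were RLE normalisation, DESeq2, a replicate block, leaving out each library, leaving out non-coding RNA, other filters, limma 3.58.1 on log2(RPKM + 1) and log2(RPKM + 0.1), a stricter peak score and a larger overlap. Some genes that this rule would name are not reported here. Protein sequences were not used here, and no promoter was printed for Bik.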

Additional observations from a re-analysis of the deposited data

How the results depend on the processing

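The falls of Bcl2l1 and Bcl2 from BFU-E to CFU-E kept their direction and stayed past the threshold under every alternative run, with log2 fold changes from -2.66 to -2.28 and from -1.68 to -1.43. Of the values recomputed for members, 555 kept direction and side of the threshold and 21 changed direction. With the direction kept, 5 gained a call and 2 lost one, both for Bcl2l2. With the replicate number as a block, Bcl2l1 was -2.42 from BFU-E to CFU-E (edgeR adjusted p = 4.34e-08), and no member's call changed. The counts of called genes were 476, 2221, 2972 and 852 in the spleen comparisons, against 420, 2145, 2924 and 790 without the block. Against BM, 3 genes were called with the block and 12 without it. The correlation of same-numbered libraries was 0.015 to 0.134 in spleen and -0.034 to -0.022 against BM. Such a correlation cannot decide whether same-numbered libraries came from the same mice.

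The cause of the following changes was not tested. From MPP to BFU-E the genes called numbered 225 to 458 when 1 library was left out and 668 with no filter, and for the contrast of the steps 506 to 821; the low counts came without BFU-E libraries. Against BM they numbered 685 by DESeq2, 25 by limma on log2(RPKM + 1), 0 to 27 when 1 library was left out and 6886 with the BM columns of the 12-library table, chosen after seeing the data.

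Small differences changed sign in some settings, given here as the range when 1 library was left out. From MPP to BFU-E it was -0.027 (without MPP 1) to 0.81 for Bad, -0.24 to 0.015 (without BFU-E 3) for Bak1, -0.13 (without MPP 2) to 0.25 for Bcl2 and -0.069 (without BFU-E 2) to 0.16 for Bcl2l1. From MPP to CFU-E it was -0.25 to 0.43 (without MPP 3) for Bcl2l11, with 0.043 under the block. In the contrast of the steps it was -0.75 to 0.084 (without MPP 1) for Bad, -0.17 (without BFU-E 1) to 0.38 for Bid and -0.00125 (without CFU-E 2) to 0.081 for Mcl1. Against BM it was -0.43 to 0.13 (without BM 1) for Bcl2, -1.09 to 0.24 (without BM 1) for Bcl2l11 and -0.10 (without BM 1 or stress 2) to 0.15 for Bcl2l1. Bcl2l1 against BM was also -0.24 and -0.25 by limma on log2(RPKM + 1) and log2(RPKM + 0.1), and with the 12-library BM columns -1.03, with Bad at -1.86. A peak score of at least 540 left 21 of 27 and 45 of 49 peaks of members.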

Other observations

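From MPP straight to CFU-E, 5 of 17 genes of the apoptosome, caspases and their inhibitors rose and 1 fell (median 0.30 on the log2 scale). In this comparison 12.7% of all genes were called higher and 16.0% lower, 28.8% in all, and the counts of the lists in this paragraph are read beside that. Casp6, an executioner caspase gene, went from 12.9 to 25.1 CPM (log2 fold change 0.95, edgeR adjusted p = 0.0281), while Birc3, which encodes a ubiquitin ligase of tumour necrosis factor signalling, fell from 25.5 to 11.2 CPM (-1.19, edgeR adjusted p = 0.00972). In the death receptor pathway 4 of 10 tested genes fell and 0 rose (median -0.48), among them the receptor gene Tnfrsf1a, from 50.4 to 22.2 CPM (-1.18, edgeR adjusted p = 0.00740). Of 16 tested regulators of BCL2 family proteins, 5 rose and 2 fell. Foxo3, a transcription factor gene whose product is known to activate Bcl2l11, went from 95.6 to 157 CPM (0.72, edgeR adjusted p = 0.000194), with Bcl2l11 at 14.1 ± 6.66 and 13.8 ± 3.49 CPM. Of 13 genes of erythropoietin and KIT signalling, 4 rose and 4 fell, with Gata1 going from 71.5 to 159 CPM (1.15, edgeR adjusted p = 1.26e-05), Stat5a from 94.5 to 141 CPM (0.58, edgeR adjusted p = 0.00255) and the STAT5-induced inhibitor gene Cish from 25.6 to 9.61 CPM (-1.42, edgeR adjusted p = 0.00472).

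Of the 16 further family genes, 10 were under the count filter in spleen, and Hrk and Bcl2a1d had 0 counts in all 9 libraries. The p53 target genes Bbc3 and Pmaip1, which encode the BH3-only proteins PUMA and NOXA, stood at 10.3, 8.01 and 7.79 CPM and at 17.9, 11.7 and 13.0 CPM in MPP, BFU-E and CFU-E. The reads implied by the RPKM of the shorter Bcl2 transcript were an estimate. They came to 25.5% of the reads counted on the longer one in BM 1 and 76.6% in BM 3. In the 3 stress BFU-E libraries they came to 19.9% to 29.5%.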
